A study of Homo sapiens with 6 samples.

Results

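The 6 butyrophilin genes BTN1A1, BTN2A1, BTN2A2, BTN3A1, BTN3A2 and BTN3A3 were followed in A-498 cells, an established human line from a renal cell carcinoma, with and without zebularine. The genes were given as a list, out of 11963 genes with a probe set of their own. They were selected on their measured difference between zebularine and untreated arrays, so that difference is described here without a test. All 13 probe sets annotated to 1 or more of the genes were kept among the 22277 on the array. One of them, 204820_s_at, is annotated to both BTN3A2 and BTN3A3 and is marked as shared.

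The series asked how expression in A-498 cells changes under zebularine, a cytidine analogue that inhibits DNA methyltransferases. The 3 untreated cultures and the 3 cultures given 1000 µM zebularine were all kept in RPMI-1640 with fetal calf serum, harvested at 120 h and split on days 3 and 5, and each gave 1 Affymetrix array. Each of 3 experiments supplied 1 untreated and 1 treated culture, so that the arrays of 1 number belong together. All arrays come from 1 cell line, and the p-values below measure only the spread between its cultures.

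Butyrophilins are membrane proteins of the immunoglobulin superfamily, related to the B7 ligands that regulate T cells, and several carry an intracellular B30.2 domain. BTN3A1 binds phosphoantigens, pyrophosphate intermediates of the mevalonate pathway, through that domain and, together with BTN2A1, activates gamma-delta T cells that carry a Vgamma9Vdelta2 receptor. BTN3A2 lacks the B30.2 domain, BTN2A2 can restrain T cell activation, and BTN1A1, the founder of the family, is a protein of the milk fat globule membrane. The genes lie side by side on chromosome 6, near histone genes and the MHC, and transcription of BTN3A genes is known to respond to interferon and to NLRC5, the activator of MHC class I genes.

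The upstream sequences of 3 of the genes are shown because zebularine acts on cytosine methylation and because related promoters would be a shared feature of the members. Windows from 250 bases before to 50 bases after an annotated start were taken from a RefSeq table of build GRCh38.p14, which held windows for BTN1A1, BTN2A1 and BTN3A3 and a pair for BTN3A2. The 250 bases before the start are printed 5′ to 3′ for the first BTN3A2 window (chr6:26364948-26365197, plus strand), for BTN3A3 (chr6:26440254-26440503, plus strand) and for BTN2A1 (chr6:26457705-26457954, plus strand). Capitals mark CCCAGCAACTG, the longest stretch that the 3 windows share, and the motif CCAAT or its reverse complement.
BTN3A2: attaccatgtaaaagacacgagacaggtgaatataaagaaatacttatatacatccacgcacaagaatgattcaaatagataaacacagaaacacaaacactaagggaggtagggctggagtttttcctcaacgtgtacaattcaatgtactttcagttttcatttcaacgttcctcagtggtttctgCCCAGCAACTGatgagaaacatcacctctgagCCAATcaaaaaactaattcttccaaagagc
BTN3A3: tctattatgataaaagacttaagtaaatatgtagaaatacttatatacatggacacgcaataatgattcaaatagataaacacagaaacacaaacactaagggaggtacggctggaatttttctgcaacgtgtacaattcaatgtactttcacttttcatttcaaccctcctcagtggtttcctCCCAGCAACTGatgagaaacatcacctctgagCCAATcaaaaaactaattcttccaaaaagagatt
BTN2A1: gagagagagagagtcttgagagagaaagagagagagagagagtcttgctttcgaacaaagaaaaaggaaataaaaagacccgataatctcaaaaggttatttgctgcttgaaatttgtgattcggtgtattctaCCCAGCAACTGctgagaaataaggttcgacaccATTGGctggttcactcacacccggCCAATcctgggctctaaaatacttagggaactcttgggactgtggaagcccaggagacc

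The BTN3A2 and BTN3A3 sequences were 86.3% identical over 255 aligned positions, and they were 47.6% and 49.7% identical to that of BTN2A1, respectively. The shared stretch of 11 bases began 62 and 66 bases before the start in BTN3A2 and BTN3A3 and 116 bases before it in BTN2A1, and a CCAAT motif followed it in all 3. It was taken from these sequences, and it was present, on either strand, in 21 of 35116 promoter windows (0.0598%), which include these 3, while CCAAT was present in 34.6% of windows. Of the other motifs searched on both strands, the core of the interferon-stimulated response element (ISRE, GAAA repeated after a gap of 2 bases) was matched in the BTN3A3 window, 35 to 44 bases after the start, and in 3.57% of all windows. The STAT-type motif TTCNNNGAA was matched in 0 of 5 butyrophilin windows and in 7.66% of all windows. The windows held few CG dinucleotides, the sites of cytosine methylation. There were 5 and 1 in those of BTN3A2, 3 in that of BTN3A3, 7 in that of BTN2A1 and 2 in that of BTN1A1, against a median of 14 over all windows. Fewer CG dinucleotides than in the butyrophilin windows were found in 3.96% to 36.8% of all windows. Methylation itself was not analysed here.

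Array medians ran from 118 to 141 signal units, and both arrays of experiment 3 had lower maxima, 31176 and 28720.5 against 66290 to 71174 on the others. Signals are MAS5 values on a linear scale. Values were compared as log2(signal + 16.3), and a probe set entered the fit across all probe sets if it reached a signal of 78.5 on at least 3 of the 6 arrays. This left 13548 probe sets, among them 11 of the 13 for butyrophilins. Of 11 markers of the renal line 9 had a probe set of their own and 8 were tested. The brightest were VIM (vimentin) at 23873 ± 4316 and 27971 ± 6905 and KRT18 (keratin 18) at 18806 ± 2599 and 14950 ± 2424 in untreated and treated cultures (SD, n = 3). PAX8 and PAX2, transcription factors of the renal lineage, read 1145 ± 103 and 858.4 ± 229, and 209.2 ± 68.0 and 192.6 ± 49.9, at their brightest probe sets, while the epithelial marker EPCAM was too dim to test, at 36.4 ± 28.0 and 36.8 ± 29.7. Leukocytes also carry butyrophilins. All 16 probe sets for 12 leukocyte marker genes, such as PTPRC, CD3E and CD14, were left out of the fit, since none reached 78.5 on 3 arrays. Their summed signal was 310.5 to 496.5 on untreated and 426.4 to 529.5 on treated arrays, the highest single value was 131.6, for CD79A on an untreated array, and none was at 0. The part of these signals in the butyrophilin values was not tested.

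Most butyrophilin probe sets had higher mean signals after zebularine, by moderate amounts that varied between the experiments. Of the 11 in the fit, 10 had a positive mean difference, and the median was 0.58 on the log2 scale with a range of -0.20 to 0.76. Without untreated 1 the median was 0.32, and without both arrays of experiment 1 it was 0.33. Over all 13548 tested probe sets the median was -0.01 and 49.2% were positive. The limma fit with Benjamini-Hochberg adjustment called 0 of the 11 at an adjusted p under 0.05, against 84 of all tested probe sets (0.62%). With the experiment number as a block it called 0 of the 11, against 573 (4.23%). At an unadjusted p under 0.05 the counts in limma were 1 of 11 without the block, against 12.6% of all, and 6 of 11 with it, against 20.7%. Treated and untreated signals did not overlap for 2 of the 11, both higher with zebularine, against 8.72% of all tested probe sets, and 0 of 11 lay wholly lower, against 8.88%. As this contrast chose the genes, nothing is read from these counts. In bulk RNA a change per cell and a change in the share of cells that express a gene cannot be told apart.

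**Figure D1:**
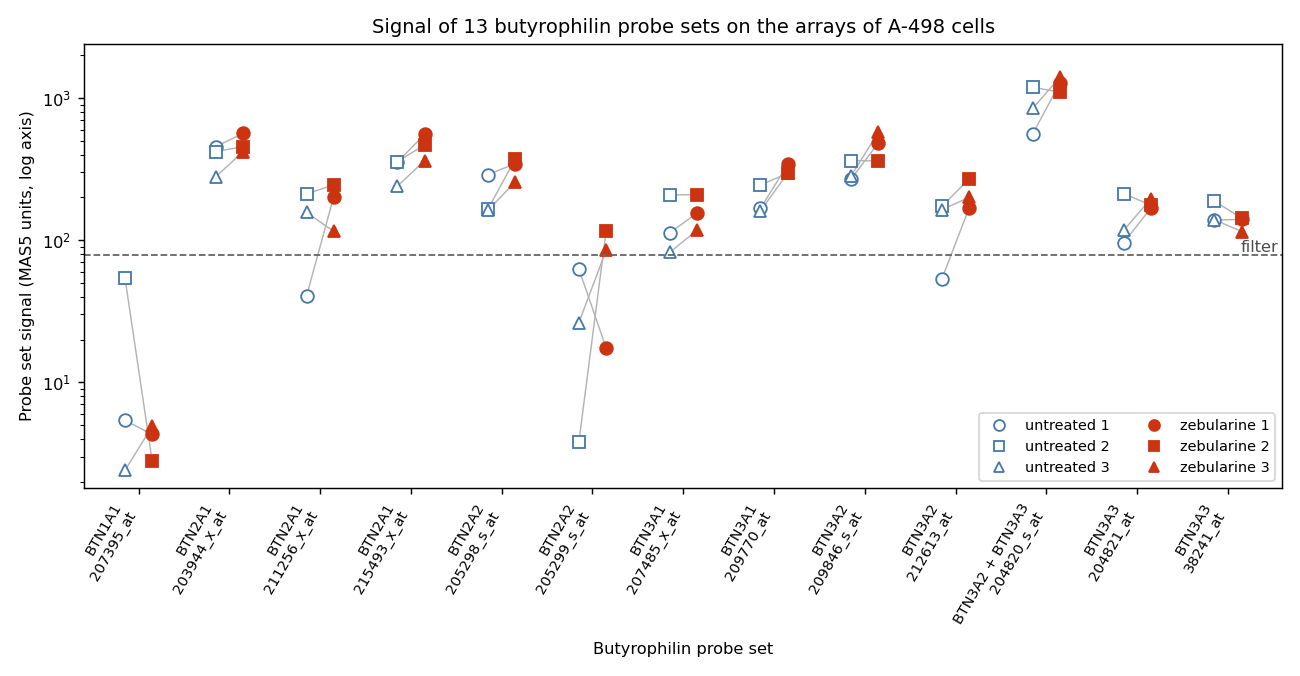
Signal in MAS5 units (vertical log axis) of the 13 butyrophilin probe sets (horizontal axis) on each array, open blue symbols for untreated and filled red symbols for zebularine, with lines joining arrays of 1 experiment. The dashed line is the signal of 78.5 used for the filter; BTN1A1 lies below it on every array, and the 3 treated arrays of BTN3A1 209770_at, at 294.8 to 340.8, lie above its 3 untreated arrays.

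BTN3A1, the phosphoantigen-binding member, was measured by a pair of probe sets. On 209770_at the signal was 167.1, 244.6 and 160.6 in untreated experiments 1, 2 and 3 and 340.8, 294.8 and 295.5 in the treated ones. All treated arrays were above all untreated ones, and the log2 difference was 0.68 ± 0.30 (standard error), a ratio of 1.60 on that scale. On 207485_x_at, a type of probe set that can bind related transcripts, the signal was 112.6, 207.9 and 81.9 without and 154.6, 209.5 and 117.3 with zebularine. The groups overlapped there, the experiment 2 values were nearly equal, and the difference was 0.29 ± 0.42. Within experiments the treated array of both probe sets was the higher one in 3 of 3.

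BTN3A2, whose protein has no B30.2 domain, gave signals of 269.4, 363.1 and 284.0 on untreated and 484.2, 361.0 and 575.2 on treated arrays at 209846_s_at. The treated value was above the untreated one in experiments 1 and 3 and level with it in experiment 2, where the untreated array was the highest of its group. The mean difference was 0.59 ± 0.28 on the log2 scale, and 0.89 without experiment 2. At 212613_at the signals were 53.6, 173.1 and 163.9 without and 169.5, 270.5 and 200.3 with zebularine, a difference of 0.76 ± 0.43. The treated array was higher in 3 of 3 experiments, and untreated 1 was the lowest of the 6 arrays, under the level for testing. Without untreated 1 the difference at 212613_at was 0.29.

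BTN3A3, which has a B30.2 domain but is not known to respond to phosphoantigens by itself, gave different pictures on its probe sets. On 204821_at the untreated signals were 95.8, 212.2 and 117.2 and the treated ones 167.8, 176.8 and 195.2, a log2 difference of 0.38 ± 0.37. The treated arrays lay close together, inside the range of the untreated arrays, and the difference was 0.17 without untreated 1 and 0.68 without untreated 2. On 38241_at the signals were 138.4, 188.6 and 139.4 without and 140.0, 142.7 and 115.0 with zebularine, a difference of -0.20 ± 0.35, the single negative one among the 11. The shared probe set 204820_s_at, which cannot separate BTN3A2 from BTN3A3, read 560.2, 1188.5 and 846.4 on untreated and 1276.8, 1100.5 and 1403.2 on treated arrays. Here too experiment 2 went the other way from experiments 1 and 3, and the mean difference was 0.59 ± 0.29. It was 0.32 without untreated 1, 0.30 without experiment 1 and 0.94 without experiment 2.

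BTN2A1, the partner of BTN3A1 that the gamma-delta receptor contacts directly, had 3 probe sets, all of the type that can bind related transcripts. On 215493_x_at the signals were 353.7, 357.6 and 239.3 in untreated and 554.2, 466.3 and 362.3 in treated cultures, so that the groups did not overlap, with the lowest treated and the highest untreated value close together. The log2 difference was 0.52 ± 0.29. On 203944_x_at the signals were 454.4, 420.4 and 279.0 without and 563.2, 454.1 and 418.7 with zebularine, a difference of 0.32 ± 0.28. Without untreated 3, the lowest array at both probe sets, the difference was 0.34 at 215493_x_at and 0.12 at 203944_x_at, and without zebularine 1 it was 0.20 at the latter. Both probe sets were higher on the treated array in 3 of 3 experiments. On 211256_x_at the signals were 40.4, 211.4 and 156.6 without and 202.2, 244.8 and 115.4 with zebularine. Untreated 1 was by far the lowest array. The difference was 0.58 ± 0.51, but -0.02 without untreated 1 and -0.10 without experiment 1.

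BTN2A2, the T cell restraining member, gave 289.2, 166.0 and 162.4 on untreated and 345.5, 372.9 and 257.9 on treated arrays at 205298_s_at. The treated array was higher in 3 of 3 experiments, most in experiment 2, and the groups overlapped because untreated 1 was above zebularine 3. The log2 difference was 0.65 ± 0.32, a ratio of 1.57 on that scale, and 0.43 without experiment 2. Its other probe set, 205299_s_at, reached the level for testing on 2 arrays, zebularine 2 at 115.3 and zebularine 3 at 84.7, and read 62.6, 3.8 and 26.3 on the untreated arrays and 17.5 on zebularine 1.

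BTN1A1, the milk fat globule member, was near the bottom of the scale on its probe set 207395_at. The untreated signals were 5.4, 54.4 and 2.4 and the treated ones 4.3, 2.8 and 4.9, under the level for testing on 6 of 6 arrays, so no difference was fitted.

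**Figure D2:**
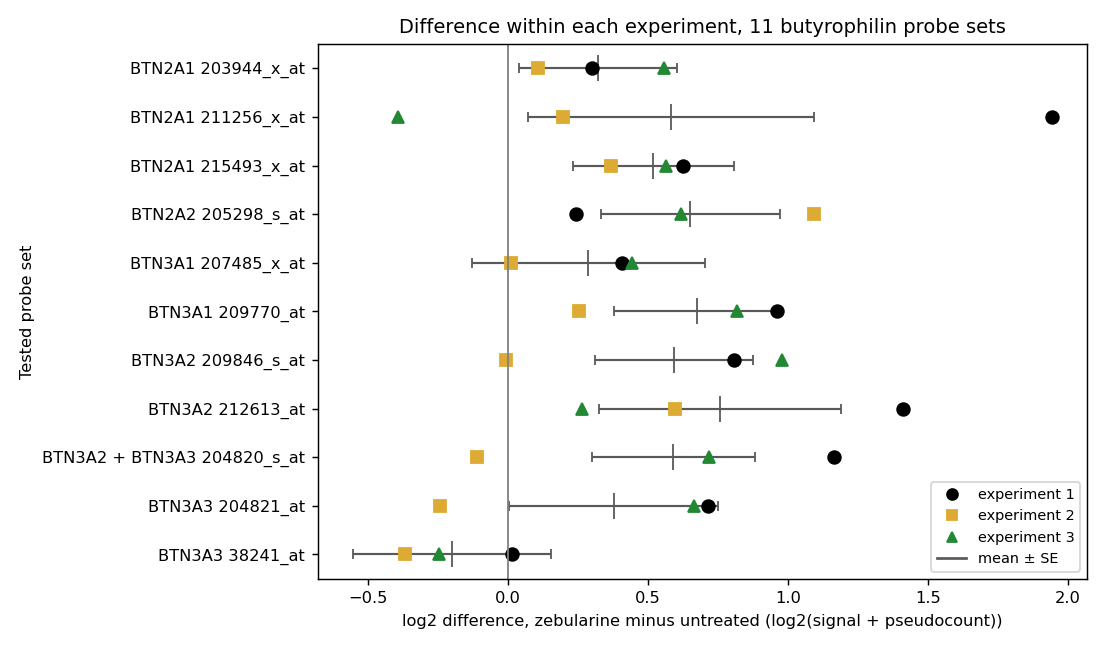
The log2 difference between the zebularine and the untreated array (horizontal axis) in experiment 1 (circles), 2 (squares) and 3 (triangles) for the 11 tested butyrophilin probe sets (vertical axis), with the mean and its standard error. Experiment 2 lies at or below 0 for BTN3A2 209846_s_at and for the probe sets annotated to BTN3A3, while experiment 1 is positive for all 11.

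The experiments differed in how far the members moved. Within experiment 1 all 11 probe sets were higher on the treated array, with a median difference of 0.72. In experiment 2 it was 7 of 11 with a median of 0.11, and in experiment 3 it was 9 of 11 with a median of 0.57. Over all tested probe sets 48.7%, 48.6% and 51.0% were higher in the same experiments. The 7 BTN3A probe sets had medians of 0.81, -0.01 and 0.66 in experiments 1, 2 and 3, and the 4 BTN2A probe sets had medians of 0.46, 0.28 and 0.56. Higher values in all 3 experiments were seen for 6 of the 11, against 20.9% of all tested probe sets. The genes were chosen on this contrast and some probe sets measure the same gene, so these counts too are only a description. Whether BTN3A and BTN2A genes differ in their response was not tested.

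By their median standard deviation, the untreated cultures varied more than the treated ones at BTN3A probe sets and, by less, at BTN2A probe sets. Among the 3 untreated arrays, untreated 2 had the highest signal for 7 of 7 BTN3A probe sets and for 2 of 4 BTN2A probe sets, against 35.3% of all tested probe sets. The mean BTN3A profile, in log2 units around each probe set's own mean, was -0.58, 0.23 and -0.31 on untreated arrays 1, 2 and 3. It was 0.21, 0.25 and 0.21 on the treated arrays, which lay close together and level with untreated 2. The median standard deviation of the log2 values of BTN3A probe sets was 0.53 over untreated and 0.17 over treated arrays. It was 0.40 and 0.28 for BTN2A probe sets and 0.35 and 0.35 for all tested probe sets. On the linear signal scale, unlike the log2 scale above, BTN3A2 209846_s_at went the other way. Its mean and SD were 305.5 ± 50.4 over untreated and 473.5 ± 107.5 over treated arrays. BTN2A1 215493_x_at did so too, at 316.9 ± 67.2 and 460.9 ± 96.1. Pairs of BTN3A probe sets correlated over the 6 arrays with a median r of 0.64 (range -0.38 to 0.92, 21 pairs). For pairs of BTN2A probe sets the median r was 0.53 (range -0.03 to 0.94, 6 pairs), and for pairs of 1 BTN3A with 1 BTN2A probe set it was 0.40 (range -0.43 to 0.89, 28 pairs). These pairs share arrays and, in part, transcripts, and their values are a description.

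The genes with the pattern most like the BTN3A mean over the 6 arrays were DHX15 (r = 0.99), RECQL (r = 0.99), SLC25A12 (r = 0.99), PSMC2 (r = 0.99) and SYNCRIP (r = 0.99). DHX15 and RECQL encode RNA and DNA helicases, SLC25A12 a mitochondrial aspartate-glutamate carrier, PSMC2 a proteasome ATPase and SYNCRIP an RNA-binding protein. RECQL, for example, had signals of 200.6, 666.8 and 289.6 without and 667.2, 778.0 and 811.0 with zebularine. As RECQL was picked by its r to the BTN3A profile, its low untreated 1 and 3 and high untreated 2 follow from that choice. Of all probe sets compared, 238 of 11949 (1.99%) had r above 0.9.

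Other members of the butyrophilin family were mostly too dim to test. Of 8 such genes 6 had a probe set of their own, 2 of these were tested and 0 were called by limma (0 at an unadjusted p under 0.05, 0 called with the block), against 0.642% of 7939 tested genes (4.45% with the block). ERMAP, an erythrocyte membrane relative, read 147.7 ± 10.2 without and 144.6 ± 11.0 with zebularine (SD, n = 3), which on the log2 scale differ by -0.03 ± 0.34 (limma, adjusted p = 0.985). BTNL3, an intestinal butyrophilin-like gene, read 67.3 ± 34.7 and 97.7 ± 34.7, which differ by 0.47 ± 0.54 (limma, adjusted p = 0.764). The pseudogene BTN2A3P, which lies inside the cluster, reached the level for testing on 2 arrays and was not tested, at 60.1, 27.3 and 37.8 without and 108.6, 90.2 and 13.1 with zebularine.

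Genes of the mevalonate pathway, which supplies the phosphoantigens sensed by BTN3A1, were not called. Of 10 genes 8 had a probe set of their own and 7 were tested. Limma called 0 higher or lower, against 0.642% of all tested genes, and 0 with the block, against 4.45%. At an unadjusted p under 0.05 in limma there were 0, against 13.1%. Their median difference was -0.15, and 1 of 7 was positive. FDPS, the farnesyl pyrophosphate synthase that uses up isopentenyl pyrophosphate, read 2336 ± 85.1 and 2299 ± 236, which differ by -0.03 ± 0.23 (limma, adjusted p = 0.977). GGPS1, the next synthase, differed by -0.20 ± 0.24 (limma, adjusted p = 0.779). The median over all tested genes was -0.01.

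Of 17 reported regulators and partners of BTN3A 14 had a probe set of their own and 10 were tested, with 0 called by limma with or without the block and 1 at an unadjusted p under 0.05, against 13.1% of all tested genes at the unadjusted level. Their median difference was 0.35 and 7 of 10 were positive. The 1 past the unadjusted level was ABCA1, a cholesterol transporter reported to export phosphoantigens, with 3347 ± 1121 and 5163 ± 1110, which differ by 0.65 ± 0.29 (limma, adjusted p = 0.375). CTBP1, a transcriptional corepressor, differed by -0.20 ± 0.27 (limma, adjusted p = 0.812). Picked on their values, PRKAA1, a catalytic subunit of AMPK, differed by 0.65 ± 0.31 and the RFX complex gene RFX5 by 0.39 ± 0.32 (limma, adjusted p = 0.418 and 0.662), while RHOB, a small GTPase that binds BTN3A1, differed by -0.62 ± 0.30 (limma, adjusted p = 0.417). The interferon-responsive factors IRF1 and IRF9, also picked on their values, differed by 0.06 ± 0.36 and 0.33 ± 0.30 (limma, adjusted p = 0.969 and 0.7). The dimmer IRF8 of the same list differed by 0.61 ± 0.71 (limma, adjusted p = 0.771) and was higher in 2 of 3 experiments.

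MHC class I genes, which share NLRC5 as an activator with BTN3A genes, had 12 tested members, 0 called by limma with or without the block and 1 at an unadjusted p under 0.05, against the same 13.1%. Their median difference was -0.04, and 5 of 12 were positive. B2M, the light chain of MHC class I, read 24301 ± 5956 and 27361 ± 6477, which differ by 0.17 ± 0.28 (limma, adjusted p = 0.846). HLA-C, at a probe set that can bind related transcripts, differed by -0.20 ± 0.25 (limma, adjusted p = 0.797). The member past the unadjusted level was the peptide transporter gene TAP1, picked on its values. Its signals were 415.7, 602.9 and 512.3 without and 736.5, 649.8 and 1042.9 with zebularine, which differ by 0.64 ± 0.28 (limma, adjusted p = 0.367). Its treated arrays were above all untreated ones, with the smallest step in experiment 2. TAPBP, the tapasin gene of the same peptide loading complex, also picked on its values, read 1297.6, 483.9 and 1392.8 without and 748.0, 458.6 and 571.1 with zebularine, lower in 3 of 3 experiments, which differ by -0.71 ± 0.37 (limma, adjusted p = 0.468).

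**Figure D3:**
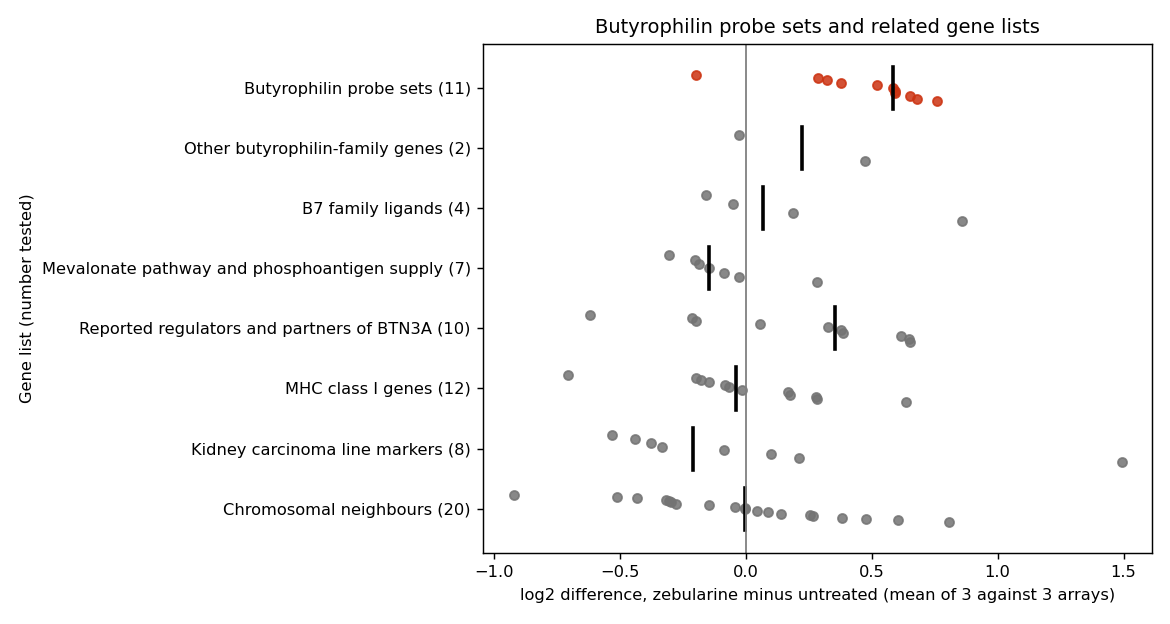
The log2 difference between zebularine and untreated cultures (horizontal axis) for the 11 tested butyrophilin probe sets (red) and for the tested genes of related lists (grey, 1 point per gene, number in brackets), with a black bar at each median. The butyrophilin median is 0.58, on the contrast that chose these genes. The medians are 0.35 for the BTN3A regulators and partners, 0.22 for other butyrophilin-family genes (2 tested) and 0.07 for B7 ligands. For the neighbour, MHC class I, mevalonate and renal line marker lists they are 0.00, -0.04, -0.15 and -0.21.

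Genes next to the cluster on chromosome 6 did not share a direction. Of the 10 nearest tested genes on each side, in RefSeq order, limma called 0 of 20 with or without the block. Over all tested genes it called 4.45% with the block and 0.642% without it. At an unadjusted p under 0.05 there were 0 of 20, against 13.1% of all tested genes. Their median difference was 0.00, with 9 of 20 positive. The nearest tested gene before the cluster, the histone gene H4C8, went from 151.3 ± 57.3 to 122.9 ± 45.9, which differ by -0.28 ± 0.43 (limma, adjusted p = 0.836). The nearest after it, HMGN4, which encodes a nucleosome-binding protein, differed by 0.38 ± 0.27 (limma, adjusted p = 0.594), from 1180 ± 338 to 1509 ± 165. Butyrophilins were chosen for this contrast and the neighbours were not, so their medians are given side by side and the difference was not tested.

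**Figure D4:**
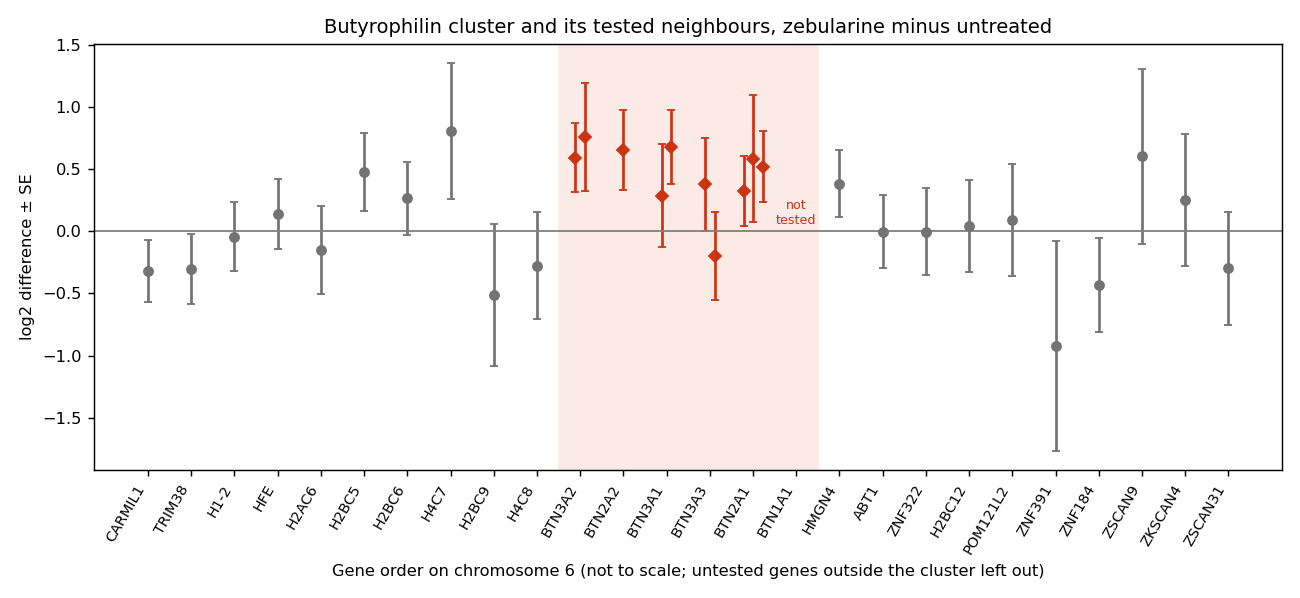
The log2 difference between zebularine and untreated cultures with its standard error (vertical axis) for the butyrophilin probe sets annotated to 1 gene (red diamonds on a shaded band) and the 10 nearest tested genes on each side (grey circles), in gene order and not to scale. The neighbours range from -0.92 for ZNF391 to 0.81 for H4C7, on both sides of 0.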

How the data were processed

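Total RNA of 6 A-498 cultures was measured on Affymetrix arrays, 3 untreated and 3 with 1000 µM zebularine; per the labels' protocols 3 µg of RNA with an integrity number above 9.0 was labelled. The authors deposited linear probe set intensities made with MAS5, per the submitters' processing notes; which release and options were used is not stated in the labels. MAS5 scales each array and subtracts mismatch signal, so dim values are noisy. Probe sets were named from the platform annotation; 19058 of 19070 with 1 symbol matched RefSeq. The genes, lists and tests were chosen with earlier results of these data known.

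Values were taken as log2(signal + 16.3), the pseudocount being the overall median divided by 8, so folds of dim genes are understated. Probe sets reaching 78.5, the 40th percentile, on at least 3 arrays were fitted with limma 3.58.1 in R 4.3.3 (eBayes with trend, two-sided, Benjamini-Hochberg over 13548 probe sets); 62 controls were left out. A gene was represented by its brightest tested probe set. Named by rule were all member probe sets, of each list the called genes or its 2 brightest, the nearest neighbours and the 5 genes most like BTN3A. Further genes were named outside this rule, several of them picked on their values. The labels give same-numbered arrays 1 experiment name, and across probe sets their deviations from the group mean had correlations of 0.323, 0.211 and 0.272, so blocked counts are given as well. The fit was tested on simulated data with independent noise on each array, so the correlation of same-numbered arrays was not part of that test. No pair of arrays shared over 0.198% of values. Alternatives were other pseudocounts, no filter, quantile normalization, no trend, the block, averaged probe sets, and arrays or experiments left out. Sequences were aligned with Biopython 1.88 and figures drawn with matplotlib 3.10.9.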

Additional observations from a re-analysis of the deposited data

How the results depend on the processing

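The median difference over butyrophilin probe sets stayed positive under all 15 alternatives tried, from 0.32 without untreated 1 to 0.69 without experiment 2. It was 0.33 without experiment 1, 0.46 with the larger pseudocount and 0.58 after quantile normalization. As the genes were selected on this difference, its sign under these settings is only a description. The replicate block and the trend setting cannot change a fitted difference in this design, and the median was 0.58 with each. Of 165 values of single butyrophilin probe sets 2 changed sign, both of BTN2A1 211256_x_at. The 165 include the block, trend and filter settings, which cannot change the fitted difference of a single probe set. Leaving out untreated 3 moved BTN3A1 207485_x_at to 0.02, and leaving out untreated 2 moved it to 0.62. All 128 counts of called genes in the 8 lists were 0, against 0.642% of all tested genes in the main fit. Part of these counts was fixed in advance. With the filter the leukocyte list had 0 tested genes, and some settings named below called 0 probe sets on the whole array. The count of called probe sets over the array was 84, and 573 with the replicate block, 55 with the smaller pseudocount, 42 with no filter and 6 with no mean-variance trend. Leaving out 1 array or experiment gave 0 to 96: 0 without zebularine 2 or without experiment 2 (1315 and 1583 at an unadjusted p under 0.05 in limma), 3 without experiment 3, 14 without untreated 3, 15 without zebularine 3, 16 without untreated 1 and 26 without experiment 1. The cause was not tested. The replicate block changed no call among the butyrophilins or the lists. The number of arrays and dim MAS5 signals limit precision.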

Other observations

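Ligands of the B7 family, the relatives of butyrophilins that T cells read through CD28-type receptors, were mostly dim. Of 9 genes 6 had a probe set of their own and 4 were tested, 0 called by limma with or without the block and 0 at an unadjusted p under 0.05, against 13.1% of all tested genes at the unadjusted level. ICOSLG, the ligand of ICOS, read 88.5 ± 47.1 without and 89.0 ± 54.6 with zebularine (SD, n = 3), which on the log2 scale differ by -0.05 ± 0.62 (limma, adjusted p = 0.985). CD86 read 80.5 ± 57.4 and 79.3 ± 24.5, which differ by 0.19 ± 0.62 (limma, adjusted p = 0.929).

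Among the renal line markers 8 of 9 genes were tested and 0 were called by limma, with 1 at an unadjusted p under 0.05, against 13.1% of all tested genes. That was KRT19, keratin 19, picked on its values, with 114.3 ± 103 without and 289.9 ± 88.5 with zebularine, which differ by 1.49 ± 0.51 (limma, adjusted p = 0.251; blocked, 0.059).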
